A study of Mus musculus and Rattus norvegicus with 51 samples.

Results

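Livers of mice made fibrotic with carbon tetrachloride (CCl4), a solvent toxic to hepatocytes, were compared by RNA sequencing between animals given the [O] form and animals given the [H] form of high-mobility group box-1 (HMGB1). The comparison took the 3 libraries titled for each isoform at the fibrosis stage, 6 of the 51 libraries of the series. Both groups are labelled as wild-type (WT) male mice that received CCl4 for 4 weeks together with the isoform, and total liver was the tissue sequenced. A group of 3 livers given CCl4 and bovine serum albumin (BSA) in place of HMGB1 is shown beside them as levels and was not tested against them. The labels do not spell out [H] or [O], and they give neither the dose, the strain, nor the source of the protein. They also do not say whether the numbered libraries of a group came from separate animals. The p-values measure how alike the differences between same-numbered libraries were, and cannot be read as the spread between animals.

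HMGB1 is an abundant chromatin protein that cells release when they are injured or activated. Outside the cell it acts as an alarm signal through receptors such as RAGE (encoded by Ager) and the Toll-like receptors, and the redox state of its cysteines changes which receptors it engages. In liver fibrosis, hepatic stellate cells turn into myofibroblasts that secrete fibrillar collagen, and macrophages both feed and dissolve the scar.

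Gene counts summed to between 11987297 and 16327132 in the [H] libraries and between 13612235 and 14552489 in the [O] libraries, and the 10 most counted genes took 7.05% to 8.71% of each. Hepatocyte markers were high in every library (Alb between 10680 and 18393 CPM, gene counts scaled to a common library total), as the tissue label says, while the 4 haemoglobin genes searched are listed at 0 throughout. Several libraries went against the label "Male" in part or in full. Xist, transcribed from the inactive X of female cells, stood at 1.92, 419 and 68.9 CPM in [H] replicates 1, 2 and 3, and at 1.65, 406 and 999.58 CPM in [O] replicates 1, 2 and 3. Ddx3y, a Y-linked gene, stood at 48.7, 6.27 and 88.5 CPM with [H] and at 70.7, 2.79 and 0.137 CPM with [O]. Replicate 1 of both groups therefore matched the label, replicate 2 of both held both kinds of transcript, and of replicate 3 the [H] library held mostly Y-linked transcripts with some Xist and the [O] library almost only Xist. Replicate 2 also stood apart in clock genes: Npas2, a partner of CLOCK, was at 19.9 CPM with [H] and 21.2 CPM with [O], against 0.786 to 1.86 CPM in the other 4 libraries. Libraries of the same number deviated together from their group means (correlations of 0.487, 0.718 and 0.271 over genes). The definition of the comparison set the number as a block in the fit, and values for each pair are given below.

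**Figure D1:**
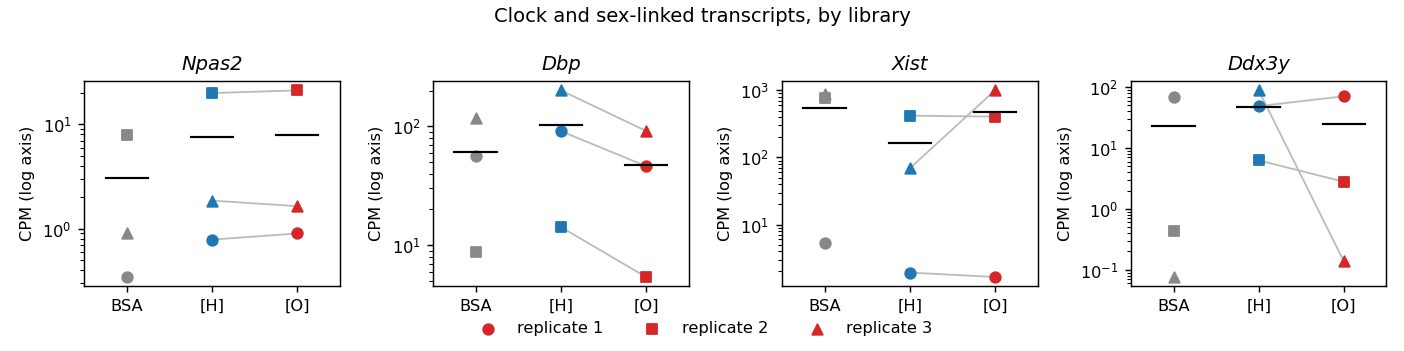
Levels in CPM (log axis) of the clock genes Npas2 and Dbp, the X-inactivation transcript Xist and the Y-linked gene Ddx3y in each library; symbols mark the replicate number, grey lines join [H] and [O] libraries of the same number, and black bars are group means. Npas2 is high in replicate 2 of every group, Dbp falls in each of the 3 pairs, and Xist and Ddx3y part ways in the pair of replicate 3.

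Of 13154 genes tested, 227 (1.73%) were higher and 3 (0.0228%) were lower with [O] than with [H] HMGB1 at an adjusted p under 0.05 (edgeR's quasi-likelihood test with the replicate block, Benjamini-Hochberg over all genes tested). They included 15 genes of the collagen and scar matrix list and 7 of the macrophage list. The genes called higher rose by a median of 1.32 on the log2 scale, 206 of them by at least 2 fold. All 230 calls (1.75% of genes) had the same sign in each pair; over all genes tested, 20.3% were higher and 17.8% lower in each pair. Groups did not overlap for 205 of the genes called higher, against 9.47% of all genes tested higher without overlap and 4.33% lower. At an unadjusted p under 0.05, 12.1% of the genes were higher and 3.4% lower. For the 227 genes called higher, the median difference was 1.16 in the pair of replicate 1, 1.31 in that of replicate 2 and 1.38 in that of replicate 3. Over all genes tested, the median lay between -0.05 and 0.03 in each pair. The 227 genes were picked by a test on these same pairs, so the selection favoured a positive median in each. The calls sit close to the threshold, with edgeR adjusted p-values from 0.0376 to 0.0498. In the same test without the block no gene passed (lowest adjusted p = 0.12; 1056 genes higher and 130 lower at an unadjusted p under 0.05). No gene passed without replicate 2 (935 higher and 110 lower at an unadjusted p under 0.05) or without replicate 3 (1246 and 419).

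**Figure D2:**
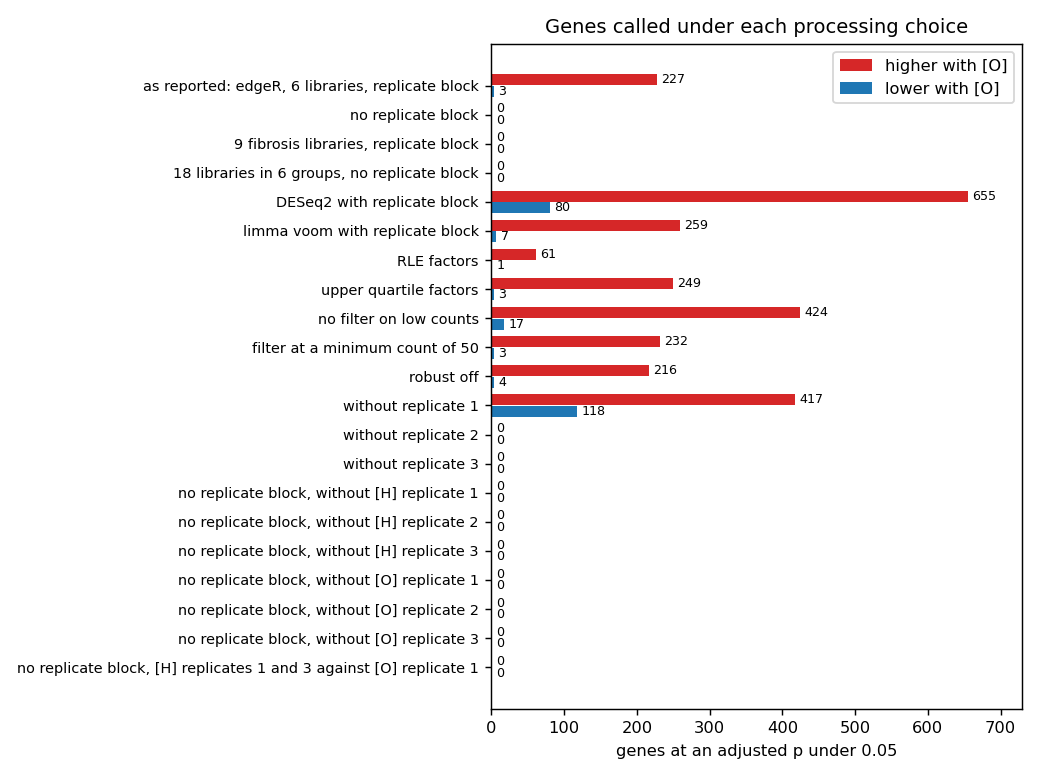
Number of genes at an adjusted p under 0.05 (horizontal axis) that were higher (red) or lower (blue) with [O] than with [H], for the fit reported here and for each other processing choice. The 227 higher calls become 655 with DESeq2 and 61 with another scaling, and 0 in every fit without the replicate block. They are also 0 with the block over the 9 fibrosis libraries, without replicate 2 and without replicate 3.

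The promoters of Col1a2, Col3a1 and Itgam are shown because they belong to the scar and the macrophage genes that rose. Each is the 150 bases before the gene's start in RefSeq on mouse GRCm38.p6, plus strand, at chr6:4505468-4505617, chr1:45311388-45311537 and chr7:128062490-128062639. Capitals mark the motifs searched and found in these stretches: CCAAT for the CCAAT box, TATAAA for the TATA box, GAGGAAG for the myeloid factor PU.1, and GGGCGG for the GC box, which in Itgam is read from the other strand.
Col1a2: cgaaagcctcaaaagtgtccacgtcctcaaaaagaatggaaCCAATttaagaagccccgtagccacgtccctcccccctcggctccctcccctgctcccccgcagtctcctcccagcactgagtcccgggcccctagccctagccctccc
Col3a1: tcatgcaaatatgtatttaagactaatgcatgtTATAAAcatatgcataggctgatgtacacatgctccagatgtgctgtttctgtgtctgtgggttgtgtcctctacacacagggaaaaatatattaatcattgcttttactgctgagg
Itgam: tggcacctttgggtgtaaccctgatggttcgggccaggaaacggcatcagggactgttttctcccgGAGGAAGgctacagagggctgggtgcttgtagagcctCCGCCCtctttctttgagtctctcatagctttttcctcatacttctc

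The PU.1 letters begin 84 bases before the start of Itgam, its GC box 47 bases before, the CCAAT box of Col1a2 109 bases before and the TATA letters of Col3a1 117 bases before. Over the 250 bases before the start, on both strands, GAGGAAG occurred in 32 of the 169 genes called higher that had a promoter entry (18.9%), in 10.9% of the genes tested and in 10.4% of all promoters. CCAAT occurred in 27.8% of the genes called higher and 36.3% of those tested, GGGCGG in 52.1% and 58.1%, and TATAAA in 6.51% and 6.75%. An E-box (CACGTG), the letters bound by clock and MYC family factors, occurred in 4.73% and 8.38%. The motifs do not overlap one another. These shares describe letters in a window and were not tested, and neither was any part of PU.1 in the calls. Spi1, which encodes PU.1, was itself called higher, by 1.03 (SE 0.17, edgeR adjusted p = 0.0492), with 18.2, 25.3 and 18.3 CPM in [H] replicates 1, 2 and 3 and 28.8, 63.0 and 38.8 CPM in the [O] livers; it was named after its values were seen.

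Collagens and other scar matrix gave the most calls of the lists examined. Col1a1, which encodes the main chain of type I collagen (chromosome 11, 94936224 to 94953042), was at 47.5, 63.6 and 30.8 CPM in [H] replicates 1, 2 and 3 and at 308, 308 and 289 CPM in the [O] libraries. The 3 [O] libraries lay within a narrow band above every [H] library, and the difference was 2.73 on the log2 scale (SE 0.22, edgeR adjusted p = 0.0376). Col3a1, the type III chain laid down early in scars (chromosome 1, 45311538 to 45349706), was at 87.3, 113 and 74.7 CPM with [H] and at 422, 465 and 436 CPM with [O], a log2 difference of 2.29 (SE 0.17, edgeR adjusted p = 0.0376). Col1a2, the second chain of type I collagen (chromosome 6, 4505618 to 4541543), rose from 56.0, 82.8 and 38.9 CPM to 298.5, 281 and 248 CPM, by 2.28 (SE 0.21). Col6a3, of the beaded filaments around cells (chromosome 1, 90766860 to 90844001), rose from 22.2, 31.7 and 18.4 CPM to 116, 105 and 146 CPM, by 2.37 (SE 0.25). In each of these 4 genes the lowest [O] library was above the highest [H] library. Without the block the adjusted p of Col1a1 was 0.12 and that of Col1a2 was 0.248, with log2 differences of 2.67 and 2.22.

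All 27 members of the list of collagens and scar matrix were tested; 15 were called higher and none lower, and the median log2 difference was 1.36, against -0.03 over all genes tested. Called members included the type V chains Col5a1 (1.85) and Col5a2 (1.69), Col6a1 (1.31) and Col6a2 (1.52), the basement membrane chains Col4a1 (1.38) and Col4a2 (1.34), the small proteoglycan lumican (Lum, 1.86), fibrillin-1 (Fbn1, 1.60), the collagen-binding protein Sparc (1.41) and periostin (Postn, 1.36). Col4a1 (chromosome 8, 11198423 to 11312889) and Col4a2 (11312805 to 11449287) overlap in RefSeq, and the use of strand in counting is not stated. In 24 of the 27 every [O] library was above every [H] library. The pair medians were 1.24, 1.12 and 1.82 for replicates 1, 2 and 3. Fibronectin (Fn1), a matrix protein that hepatocytes also secrete, was at 4295, 4614 and 3837 CPM with [H] and 4155, 4992 and 4265 CPM with [O] (log2 difference 0.08, SE 0.17). Col18a1, the source of endostatin, differed by -0.12, and neither passed the test.

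The enzymes that mature collagen included 5 called genes of 16 tested, all higher, with a list median of 1.09. Lox, a lysyl oxidase that crosslinks collagen fibres, was at 1.92, 6.13 and 1.33 CPM with [H] and at 8.17, 22.6 and 8.77 CPM with [O], a log2 difference of 2.19 (SE 0.26). Its relative Loxl1 went from 8.73, 17.7 and 8.10 CPM to 24.97, 43.1 and 30.0 CPM, a difference of 1.56 (SE 0.18). Replicate 2 was the highest library of both groups for both enzymes, and neither gene had overlapping groups. Loxl2 (1.63), the collagen chaperone Serpinh1 (1.64) and the procollagen N-proteinase Adamts2 (1.42) were called too. Hydroxylases that modify collagen before it leaves the cell, P4ha1 (0.53), P4ha2 (0.11) and Plod1 (0.32), did not pass the test.

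**Figure D3:**
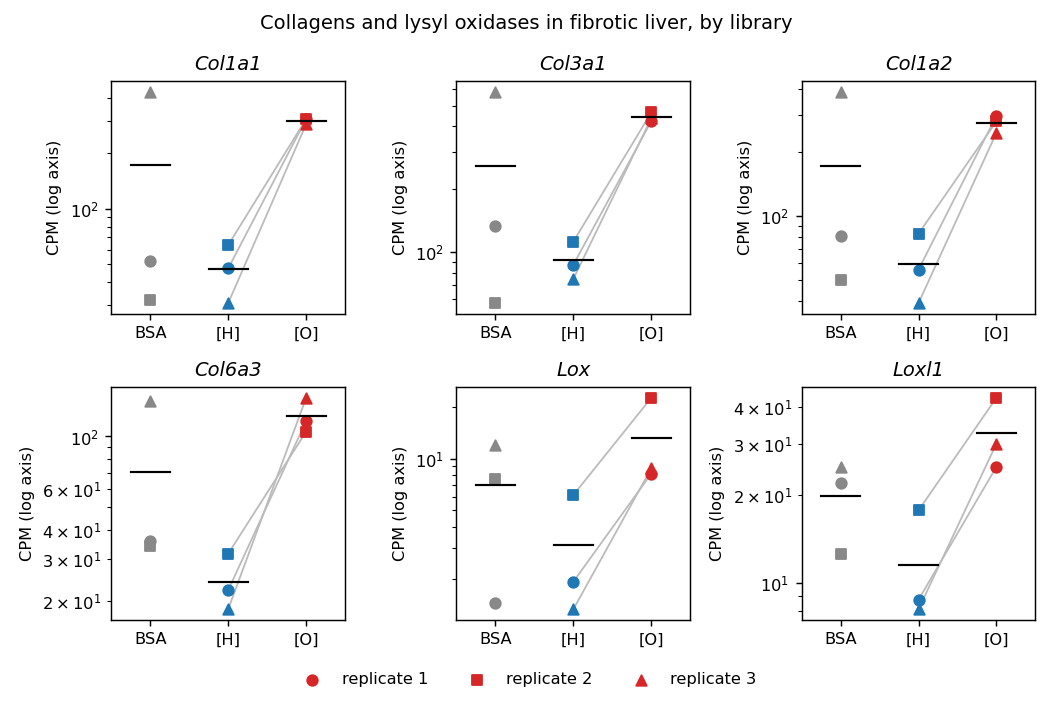
Levels in CPM (log axis) of 4 collagen chains and 2 lysyl oxidases in each library of the BSA, [H] and [O] groups; symbols mark the replicate number, grey lines join libraries of the same number, and black bars are group means. All 3 lines rise in each of the 6 panels, and for the collagen chains BSA replicate 3 lies close to or above the [O] libraries while BSA replicates 1 and 2 lie near the [H] libraries.

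The BSA livers did not sit on one side. Col1a1 was at 52.2, 32.1 and 433 CPM in BSA replicates 1, 2 and 3, and Col3a1 at 133, 57.3 and 584 CPM, so that replicate 3 exceeded every [O] library and replicates 1 and 2 lay near the [H] ones. Over the 227 genes called higher, the BSA mean was above the [H] mean in all 227, between the means of both isoforms in 204 and above the [O] mean in 23. The 227 genes were picked for low [H] and high [O] levels in these same libraries, which favours a BSA mean between them. The share over all genes tested was not computed, so these counts are not read further. BSA replicate 3 was also a library with high Xist (897 CPM) and little Ddx3y (0.076 CPM), like [O] replicate 3. BSA replicate 2 had high Xist as well (762 CPM), with Col1a1 at 32.1 CPM. The part of sex or of the animals' origin in the result was not tested. In the pair of replicate 1, where both libraries matched the label, the log2 difference was 2.69 for Col1a1 and 2.27 for Col3a1. Both genes were called on these same pairs, so these values are no test of sex.

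Genes that degrade or protect matrix gave 5 calls among 20 tested, all higher (list median 1.07). Mmp8, a collagenase stored in neutrophils, was at 0.786, 1.32 and 1.59 CPM with [H] and at 2.02, 12.4 and 9.93 CPM with [O], a log2 difference of 2.54 (SE 0.40, edgeR adjusted p = 0.0438) on few counts. The other calls were Adamts5 (1.54), Plat (1.58), which encodes tissue plasminogen activator, and 2 inhibitors, Serpine2 (1.53) and Timp2 (0.97). Timp1, the inhibitor most often used as a fibrosis readout, was at 11.4, 17.5 and 3.45 CPM with [H] and at 12.6, 53.7 and 24.3 CPM with [O]. Its groups overlapped, and the difference of 1.51 (SE 0.48) did not pass the test (edgeR adjusted p = 0.200).

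Of 18 tested markers of activated stellate cells and myofibroblasts, 4 were called higher and the median was 0.96. They were Ltbp2 (2.16), a microfibril protein, the intermediate filament gene Vim (1.38), the actin-binding Cnn2 (1.29) and Pdgfra (1.05), a receptor for platelet-derived growth factor on fibroblasts. Acta2, the smooth muscle actin that defines myofibroblasts, was at 41.3, 27.3 and 7.37 CPM with [H] and at 100.3, 66.1 and 71.7 CPM with [O]. All [O] libraries were above all [H] libraries, but the difference of 1.89 (SE 0.42) missed the threshold (edgeR adjusted p = 0.0914), as did Tagln (1.38, adjusted p = 0.091). Vim and Cnn2 are made by many other stromal and blood cells too. Markers of quiescent stellate cells gave no call among 13 tested (median 0.45; lowest adjusted p = 0.0669, Hand2 at 0.82; 7 higher and none lower at an unadjusted p under 0.05, and 3 higher with DESeq2). In whole liver, more cells of a type and more RNA per cell cannot be told apart.

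Among 21 tested genes of the TGF-beta pathway, the main driver of scar formation, 2 were called. Tgfb1, the ligand itself, was at 22.2, 36.7 and 21.3 CPM with [H] and at 36.0, 75.7 and 48.8 CPM with [O], a log2 difference of 0.99 (SE 0.16, edgeR adjusted p = 0.0438). The groups overlapped, since [O] replicate 1 lay just below [H] replicate 2, while each pair rose. Ltbp3, which holds the latent ligand in the matrix, was higher by 0.98. The receptors Tgfbr1 (0.07) and Tgfbr2 (0.05) and the feedback inhibitor Smad7 (-0.15) did not pass. The list median was 0.38. At an unadjusted p under 0.05, 9 members were higher and 3 lower, and DESeq2 called 5 higher and 2 lower. Id1 and Id2, targets of the related BMP signal, differed by -0.92 (adjusted p = 0.206) and -0.72 (adjusted p = 0.163), and every [O] library was below every [H] library for Id2.

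The genes of HMGB1 and its receptors gave no call among 18 tested by edgeR (9 higher and none lower at an unadjusted p under 0.05; 4 higher and none lower with DESeq2). The animals' own Hmgb1 transcript was at 179, 156 and 168 CPM with [H] and at 160, 135 and 155 CPM with [O], a log2 difference of -0.16 (SE 0.13, edgeR adjusted p = 0.626) with overlapping groups. Hmgb2, the paralog of dividing cells, differed by 1.04 (SE 0.35, adjusted p = 0.224). Tlr4, a receptor for HMGB1 and for bacterial lipopolysaccharide, was at 1.31, 2.72 and 3.12 CPM with [H] and at 3.15, 6.86 and 5.34 CPM with [O], a difference of 1.11 (SE 0.29, adjusted p = 0.122). Tlr2 differed by 1.03 (adjusted p = 0.134) and Tlr9, the endosomal DNA sensor, by 1.54 (adjusted p = 0.0617). Ager, which encodes RAGE, stayed under the filter on low counts, at 0.243 to 0.906 CPM in the 6 libraries.

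Macrophage genes formed the second large group. Of 17 markers of infiltrating and scar-associated macrophages tested, 7 were called higher and none lower, with a median of 1.09. Adgre1, which encodes the macrophage antigen F4/80 (chromosome 17, 57358581 to 57483529), was at 19.7, 29.1 and 32.1 CPM with [H] and at 60.6, 115 and 114 CPM with [O], a log2 difference of 1.82 (SE 0.14, edgeR adjusted p = 0.0376). Itgam, the integrin chain CD11b of myeloid cells (chromosome 7, 128062640 to 128118491), was at 16.9, 36.6 and 11.2 CPM with [H] and at 43.6, 189 and 62.3 CPM with [O], a difference of 2.08 (SE 0.25). Gpnmb, a glycoprotein of lipid-laden and scar-associated macrophages, was at 40.3, 70.6 and 34.3 CPM with [H] and at 145, 187 and 194 CPM with [O], a difference of 1.92 (SE 0.23). In none of these did the groups overlap, and [O] replicate 1 was the lowest [O] library for each.

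The chemokine receptor Cx3cr1 (1.67), the lipid receptor Trem2 (1.80), Ms4a7 (1.74) and lysozyme (Lyz2, 1.09) were the other macrophage calls. The monocyte genes Ly6c2 (1.46) and Ccr2 (1.34), the lysosomal Cd68 (0.98) and Spp1 (0.78) did not pass. Summed over the list, macrophage transcripts came to between 719 and 1112 CPM with [H], between 1517 and 2293 CPM with [O] and between 1057 and 1806 CPM with BSA. Resident macrophage (Kupffer cell) markers gave no call among 11 tested (5 higher and none lower at an unadjusted p under 0.05, and 2 higher with DESeq2). The lowest adjusted p was that of Cd5l, a secreted survival factor of resident macrophages, at 0.0623 with a difference of 0.84, and Clec4f, which is specific to these cells, differed by -0.25. Outside the lists, Itgb2, the partner chain of CD11b, and Ncf1, a subunit of the phagocyte oxidase, were both called higher by 1.52; they were named after their values were seen.

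**Figure D4:**
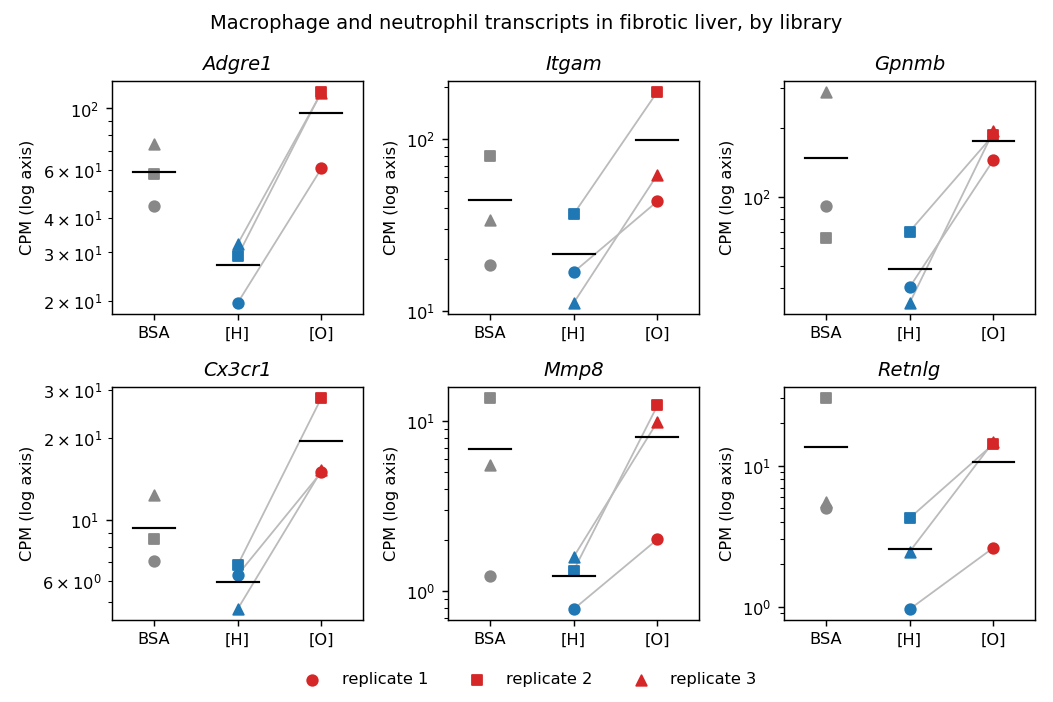
Levels in CPM (log axis) of 4 macrophage genes (Adgre1, Itgam, Gpnmb, Cx3cr1) and 2 neutrophil genes (Mmp8, Retnlg) in each library; symbols mark the replicate number, grey lines join libraries of the same number, and black bars are group means. Every line rises from [H] to [O], and [O] replicate 1 lies below the other two [O] libraries for Mmp8 and Retnlg.

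Neutrophil markers had the highest median of the lists, 1.99, and 2 of 13 tested were called, Mmp8 and Retnlg. All 13 were higher at an unadjusted p under 0.05, and DESeq2 called 11 higher. Retnlg, a secreted protein of mature neutrophils, was at 0.961, 4.25 and 2.46 CPM with [H] and at 2.62, 14.3 and 14.8 CPM with [O], a log2 difference of 1.99 (SE 0.30, edgeR adjusted p = 0.0405), with overlapping groups. Granule genes had larger differences and wider errors: Ltf 3.63 (SE 0.64, adjusted p = 0.0578), Camp 3.63 (adjusted p = 0.0760) and Mpo 4.34 (SE 1.18, adjusted p = 0.161). The rise was uneven across pairs, with pair medians of 0.44, 2.39 and 2.62, and the summed level was 57.0 CPM in [O] replicate 1 against 373 and 416 CPM in replicates 2 and 3, where the [H] libraries held 39.6 to 61.3 CPM. Retnlg and Mmp8 differed by 1.32 and 1.22 in the pair of replicate 1.

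Cytokines and chemokines gave 1 call among 26 tested, with a median of 0.49. At an unadjusted p under 0.05, 9 members were higher and 2 lower, and DESeq2 called 4 higher and none lower. Cxcl13, which attracts B cells and is made by macrophages and stromal cells, was at 7.25, 5.58 and 1.86 CPM with [H] and at 24.2, 57.6 and 24.5 CPM with [O], a log2 difference of 2.91 (SE 0.40, edgeR adjusted p = 0.0403). All 3 [O] libraries were above all [H] libraries. Ccl2, the monocyte attractant, differed by 0.47 (adjusted p = 0.579) and Tnf by 0.81 (adjusted p = 0.479). No gene was called among 18 NF-kB targets (median 0.17; 4 higher and none lower at an unadjusted p under 0.05, and 2 higher with DESeq2), 23 interferon-stimulated genes (median -0.13; 1 higher and 4 lower, none with DESeq2) or 21 acute phase genes (median 0.13; none higher and 1 lower, also with DESeq2). T and NK cell genes had a median of 0.63 over 10 tested, B and plasma cell genes of 0.79 over 5, and antigen presentation genes of 0.47 over 12. These 3 lists held no call. At an unadjusted p under 0.05 they held 1, 2 and 2 members higher and none lower, and DESeq2 called 0, 1 and 0 higher.

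The endothelial list joins sinusoidal markers with general endothelial genes such as Pecam1, Cdh5 and Cd34. Of its 16 genes tested, 2 were called, both higher (13 higher and none lower at an unadjusted p under 0.05, and 7 higher with DESeq2). The fitted log2 difference was positive in all 16, as in 6060 of the 13154 genes tested, and 14 were higher in each pair. Stab1, a scavenger receptor, was at 57.4, 74.7 and 56.9 CPM with [H] and at 128, 146 and 148 CPM with [O], a log2 difference of 1.18 (SE 0.14, edgeR adjusted p = 0.0376). Its relative Stab2, which clears hyaluronan from blood, rose by 1.00 (SE 0.17, adjusted p = 0.0481) from 25.6, 47.5 and 50.6 CPM to 66.6, 81.2 and 90.7 CPM. Both had separate groups. The median was 0.88, and the summed level was 405 to 692 CPM with [H] and 834 to 951 CPM with [O]. Cholangiocyte genes (median -0.16 over 12) and mesothelial genes (0.01 over 9) held no call (1 higher and none lower, and 1 higher and 1 lower, at an unadjusted p under 0.05; none with DESeq2).

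**Figure D5:**
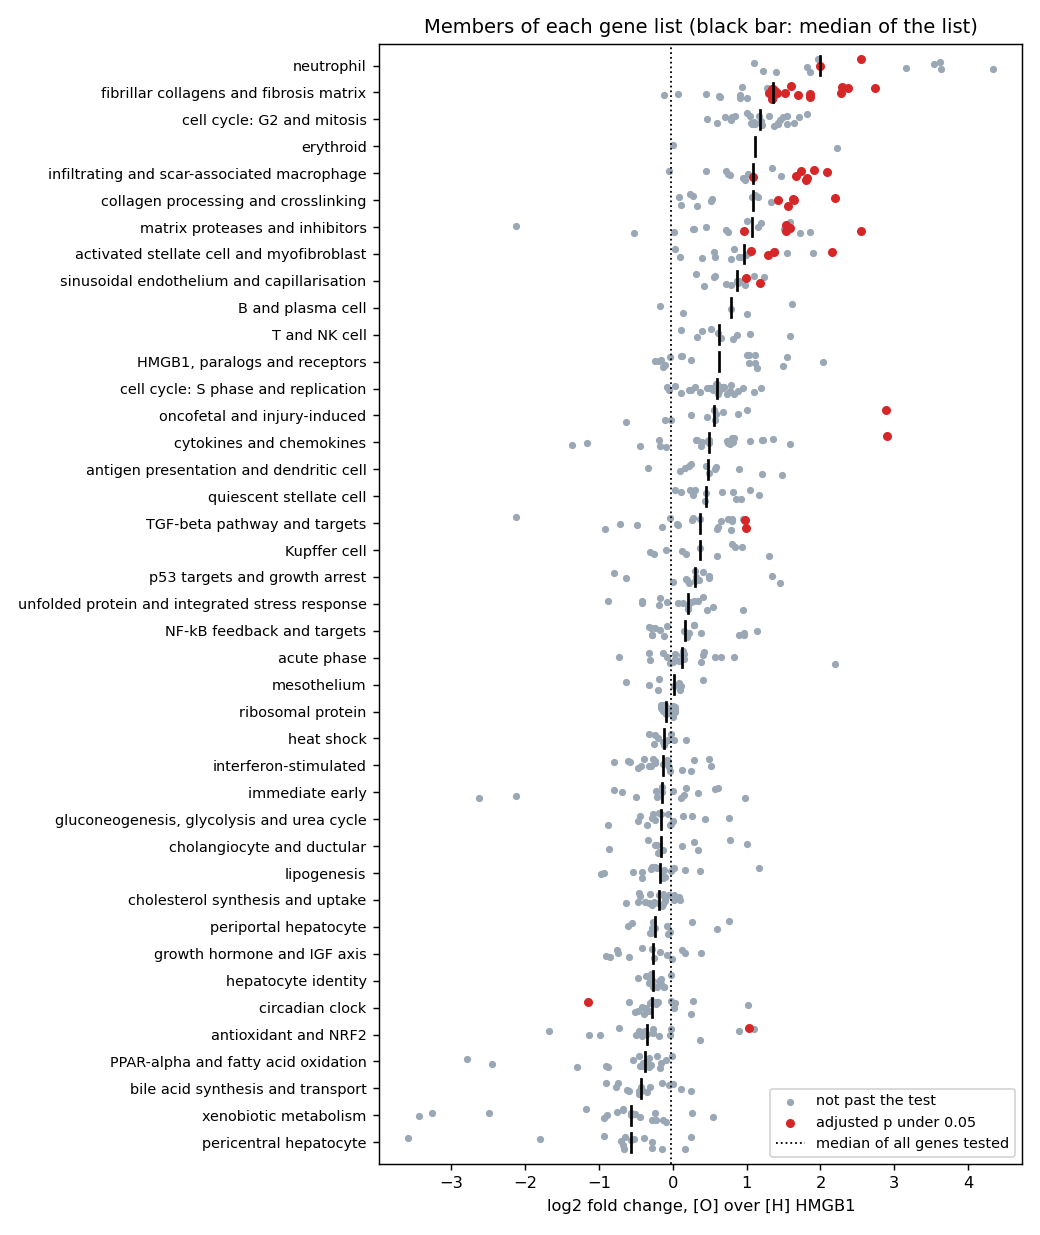
Log2 fold change of [O] over [H] HMGB1 (horizontal axis) for each tested member of each gene list (points; red where the adjusted p was under 0.05), with the median of the list as a black bar and the median of all genes tested as a dotted line. Calls gather in the matrix, collagen processing, protease, myofibroblast and macrophage lists, and hepatocyte and metabolic lists lie at or below the dotted line.

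Hepatocyte genes gave no call. None of the 16 identity genes had a positive fitted difference (median -0.27; none at an unadjusted p under 0.05 or with DESeq2). Alb differed by -0.16 (SE 0.21, edgeR adjusted p = 0.755). Their summed level ranged from 43320 to 53260 CPM with [H] and from 33780 to 55460 CPM with [O], so the groups overlapped. The pair medians were 0.01, -0.41 and -0.29, the first of these close to 0. Medians were -0.56 for pericentral genes, -0.24 for periportal genes, -0.56 for xenobiotic enzymes, -0.43 for bile acid genes and -0.38 for fatty acid oxidation, and these lists held no call. At an unadjusted p under 0.05, they held 0, 2, 0, 0 and 0 members higher and 2, 1, 3, 1 and 4 lower; DESeq2 called 1 periportal gene higher, and 1 pericentral, 2 xenobiotic and 1 fatty acid oxidation gene lower. Each of these 5 medians was positive in the pair of replicate 1 (0.06 to 0.38) and negative in the pairs of replicates 2 and 3. Me1, malic enzyme, which supplies NADPH for fat synthesis, had the lowest adjusted p among the lipid genes: 110.0, 141 and 201 CPM with [H] against 76.4, 69.1 and 77.7 CPM with [O], a difference of -0.97 (SE 0.19, adjusted p = 0.0653). Hmox1, haem oxygenase, was the 1 call of 19 antioxidant genes, at 52.8, 110 and 56.8 CPM with [H] and 86.5, 291 and 111 CPM with [O] (1.03, SE 0.17, adjusted p = 0.0498), whereas the list median was -0.35. At an unadjusted p under 0.05, 2 antioxidant genes were higher and 5 lower, and DESeq2 called 2 higher and 1 lower.

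Cell cycle genes were uneven across pairs. The median over 26 genes of G2 and mitosis was 1.18, with pair medians of 0.30, 0.65 and 2.29, and over 27 replication genes it was 0.59, with pair medians of -0.02, -0.04 and 1.89. Neither list held a call (13 and 3 higher, none lower, at an unadjusted p under 0.05; 4 and none with DESeq2). Prc1, a spindle midzone protein, had the lowest adjusted p of the mitotic genes: 4.19, 2.02 and 2.39 CPM with [H] and 7.05, 6.67 and 11.0 CPM with [O], a difference of 1.55 (SE 0.34, adjusted p = 0.0835).

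Among the highest folds outside these groups were Raver2, an RNA-binding protein (3.36, SE 0.55, adjusted p = 0.0450, at 0.0664 to 0.349 CPM with [H] and 0.825 to 3.58 CPM with [O]), the metalloproteinase Adamts12 (2.43, SE 0.35) and the calpain-family protein Capn6 (2.22, SE 0.31). H19, an imprinted RNA of fetal liver, was called with a difference of 2.89 (SE 0.46, adjusted p = 0.0439), but its groups overlapped: 0.349, 1.81 and 3.19 CPM with [H] and 0.375, 15.9 and 29.8 CPM with [O]. The pair of replicate 1 differed by 0.07 only. With [H] replicates 1 and 3 set against [O] replicate 1 alone, the log2 difference was -2.23, on an arm of 1 library.

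Only 3 genes were called lower, and none of them had separate groups. Dbp, a clock-controlled transcription factor (chromosome 7, 45705100 to 45710203), was at 91.1, 14.2 and 201 CPM with [H] and at 46.3, 5.40 and 91.4 CPM with [O]. It fell in every pair, by 1.15 on the log2 scale in the fit (SE 0.14, edgeR adjusted p = 0.0376), while replicate 2 was several times below the others in both groups. Of the 19 clock genes tested no other was called (1 higher and 4 lower at an unadjusted p under 0.05, Dbp among the latter). Ciart (-0.59), Per3 (-0.51), Tef (-0.47) and Hlf (-0.41) were, like Dbp, lower in each pair, while Arntl differed by 0.25 and Npas2 by 0.03. The 1 clock gene higher at an unadjusted p under 0.05 was Bhlhe41, by 1.02 (SE 0.37, edgeR adjusted p = 0.258). It rose in each pair, and every [O] library was above every [H] library. Sprr1b, a cornified envelope protein, fell by 1.95 (SE 0.27, adjusted p = 0.0403) from 7.69, 26.7 and 3.52 CPM to 1.95, 8.98 and 0.548 CPM. Gstt3, a glutathione transferase, fell by 0.87 (SE 0.13, adjusted p = 0.0403) from 73.0, 107 and 171 CPM to 42.4, 59.8 and 86.5 CPM.

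The series also holds the same contrast in HSC-T6, a rat hepatic stellate cell line given either isoform for 6 hours, with 3 libraries a group and no sample in common. Of the 227 genes higher in liver, 195 had the same symbol in the cell table and 121 of these reached 1 CPM; 46 were higher with [O] without overlap, 31 were lower and 44 overlapped. Of all 9789 genes at 1 CPM or more in the cells, 28.0% were higher and 25.6% lower without overlap, so the shares of the liver genes are not read further. Acta2 was at 613 ± 6.04 CPM with [H] and 1140 ± 28.3 CPM with [O] (SD, n = 3), and Col1a1 was at 36530 ± 416 and 41090 ± 710 CPM. Col3a1 went the other way in the cells, from 20170 ± 368 to 18640 ± 478 CPM. Adgre1 and Itgam are listed at 0 in the cells.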

How the data were processed

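Per the labels' protocols, an RNAspin kit gave the liver RNA and TruSeq Stranded mRNA the libraries. The authors deposited whole-number gene counts of 18 liver libraries, on mm10 per the submitters' processing notes; for the aligner, the counter and its use of strand: not given in the sources used here. Counts were filtered with filterByExpr (minimum count 10, minimum total 15), scaled by TMM and tested with edgeR 4.0.16 (R 4.3.3; glmQLFit, robust, replicate number as block) on the 6 libraries, leaving 2 residual degrees of freedom; 13154 of 24421 genes remained. CPM values use 1 TMM scaling over the 9 fibrosis livers. Alternatives used limma 3.58.1 and DESeq2 1.42.0. Deposited counts of the HSC-T6 table were scaled to CPM. Promoters and coordinates came from RefSeq (GRCm38.p6), which held 95.6% of tested symbols. The script was tested on simulated data.

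The members, the 42 gene lists and the tests were chosen with earlier results of these data known. The lists held 717 distinct genes, of which 654 were tested, 46 lay under the filter and 17 were not found by symbol; mitochondrially encoded genes were among the latter. Named were the 12 called genes with the largest rise and up to 12 with the largest fall (3 were called lower; mean of at least 1 CPM, same sign in each pair), up to 4 called members of each list or its member with the smallest p, and a fixed set of HMGB1, receptor and scar genes. Other list members named were chosen after their values were seen. Same-numbered libraries correlated in their deviations (0.487, 0.718, 0.271, with other pairings at -0.602 to 0.124), which was taken as pairing. Deviations were taken from the mean of the same 3 libraries, so the low values of other pairings are not separate evidence. The labels do not say what the number marks. No 2 libraries of a group agreed within sampling noise (chi-square divided by its degrees of freedom, at least 44.8).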

Additional observations from a re-analysis of the deposited data

Results flagged for a closer look

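For 7 of the genes named by rule, every [O] liver was above every [H] liver while every [O] culture of HSC-T6 cells was below every [H] culture. The difference between liver and cells was not tested. Of the 121 genes called higher in liver that reached 1 CPM in the cells, 28 showed this pattern. Of all genes at 1 CPM or more in the cells, 25.6% were lower without overlap, so the 28 are not read further. In liver, the log2 differences were 2.29 for Col3a1, 1.56 for Loxl1, 1.38 for Vim, 0.82 for Hand2, 1.92 for Gpnmb, 1.55 for Prc1 and 1.11 for Tlr4. In the cells, levels with [H] and [O] (mean ± SD, n = 3) were 441 ± 9.47 and 396 ± 22.9 CPM for Loxl1, 5246 ± 39.4 and 4993 ± 137 CPM for Vim, and 969 ± 11.4 and 933 ± 8.18 CPM for Gpnmb. Tlr4 went from 70.6 ± 1.89 to 54.1 ± 0.59 CPM, Prc1 from 192 ± 4.90 to 179 ± 4.26 CPM, and Hand2 from 5.88 ± 0.096 to 5.53 ± 0.20 CPM. The tissue and the cells also differ in species, exposure time and cell makeup.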

How the results depend on the processing

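Counts of genes called depended on the processing. The 227 higher and 3 lower calls became 655 and 80 with DESeq2, 61 and 1 with RLE factors, and 424 and 17 with no filter on low counts; lower calls were 7 with limma voom, with 259 higher. All 227 higher calls were among those of DESeq2. No gene was called with no replicate block (0 higher, 0 lower), with 9 fibrosis libraries and the block (1386 higher and 193 lower at an unadjusted p under 0.05) or with all 18 libraries of the table and no block (1133 and 280). Over the pairs or libraries left out in turn, higher calls ranged from 0 to 417 and lower calls from 0 to 118; the highest counts came without replicate 1, where 201 of the 227 were shared. An alternative chosen after seeing the data, with no replicate block and [H] replicates 1 and 3 against [O] replicate 1 alone, the libraries with high Y-linked transcripts, gave 0 and 0 (282 and 39 at an unadjusted p under 0.05); its [O] arm is 1 library, assumed to vary like the [H] libraries, and [H] replicate 3 holds some Xist, so it says nothing about sex. The causes were not tested.

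Every call had 1 sign in all 3 pairs, which limits how far a direction can turn: 34 of the 35 called genes that the text names by rule had an unchanged sign under each of the 20 alternatives that tested them, and H19 turned to -2.23 with the selection above. Among genes not past the test, Rplp0 turned to 0.174 there and Bag3 to 0.064 with no replicate block and without [O] replicate 1. RLE and upper quartile scaling moved the median of all genes to -0.05 and 0.04. With 2 residual degrees of freedom, smaller changes could be missed.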
